A study of Mus musculus with 16 samples.

Results

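The vascular endothelial growth factor (VEGF) genes described here were 4 ligands (Vegfa, Vegfb, Vegfc and Pgf), 3 receptor tyrosine kinases (Kdr, Flt1 and Flt4) and the neuropilin co-receptors Nrp1 and Nrp2. They were taken by symbol and not by any measured value, and all 9 were found among the 17097 genes measured. In RefSeq they lie on chromosomes 17 (Vegfa), 19 (Vegfb), 12 (Pgf), 11 (Flt4) and 1 (Nrp2), with Vegfc and Nrp1 on 8 and Kdr and Flt1 on 5. They were read by 15 of the 45037 probe sets on the array, and where a gene had several, the one with the highest mean over the 16 arrays stood for it. Each array held RNA from 1 flank tumour grown from Hepa1-6, a mouse liver carcinoma line, in male C57BL/6 mice implanted with the cells in Matrigel at the age of 5 weeks and treated once tumours measured 200 to 300 cubic millimetres. Placebo mice (n = 4) received hamster IgG, AntiPD1 mice (n = 3) the antibody J43 against the T cell checkpoint receptor PD-1, Cabozantinib mice (n = 5) the kinase inhibitor cabozantinib, and Combination mice (n = 4) both agents. IgG and antibody were each injected at 10 mg/kg, 5 times, at intervals of 3 days, and cabozantinib was given by mouth every day at 30 mg/kg. All tumours were removed on day 14. The labels do not say if mice on cabozantinib alone had IgG injections too. The model is 1 cell line under the skin, so the vessels and immune cells came from the flank of the host and not from liver.

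VEGF ligands are secreted by tumour and stromal cells, often under low oxygen, and act mainly on the endothelial cells that line vessels. VEGF-A, from Vegfa, signals chiefly through VEGFR2, the product of Kdr, to drive vessel sprouting. Among the receptor kinases, VEGF-B and placental growth factor, from Vegfb and Pgf, bind VEGFR1, the product of Flt1, which holds ligand tightly and signals weakly, while VEGF-C, from Vegfc, acts on VEGFR3, the product of Flt4, in lymphatic vessels. Neuropilins bind VEGF ligands and secreted semaphorins, and are also found on macrophages and other stromal cells. Cabozantinib blocks the kinase activity of VEGFR2, MET and AXL. The comparisons ask how each agent alone, and the pair, changed the transcripts of these ligands and receptors.

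The values are log2 array intensities after robust multi-array averaging (RMA), so a difference of 1 is a fold of 2 in intensity. The array medians lay between 4.92 and 5.13, and a value near or under them is not shown to be above background. The tumours carried the liver transcripts Alb and Afp at means of 13.09 and 12.62, and of 4 measured keratinocyte genes Krt10 had a mean of 5.59 and the others had means under every array median. The endothelial markers Pecam1, Cdh5 and Tie1 had means of 6.63, 5.86 and 4.77, the last under the lowest array median. In 4 tumours (AntiPD1 replicate 2, Cabozantinib replicates 3 and 4, Combination replicate 4) skeletal muscle genes were high, with scores (mean log2 value over the list, centred on the 16 tumours) above the limit of 2, from 2.5 to 5.5. Values without these tumours are given beside the calls that change.

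Across the 4 groups, 2 of the 9 genes differed in limma's moderated F test after Benjamini-Hochberg adjustment over all genes, Kdr (adjusted p = 0.0127) and Vegfa (adjusted p = 0.0219). The same test called 6.77% of all genes. The 2 genes moved in opposite directions. Kdr was lowest in both groups that received cabozantinib, where Vegfa was highest. Nrp1 had an adjusted p of 0.0618 in this test and Nrp2 one of 0.107, and the other 5 genes had adjusted p-values from 0.238 upward. Without the 4 tumours high in muscle genes Nrp1 and Nrp2 passed as well (adjusted p = 0.0144 and 0.0248), and without Cabozantinib replicate 3, one of the 4, so did Flt1 (adjusted p = 0.0456).

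**Figure D1:**
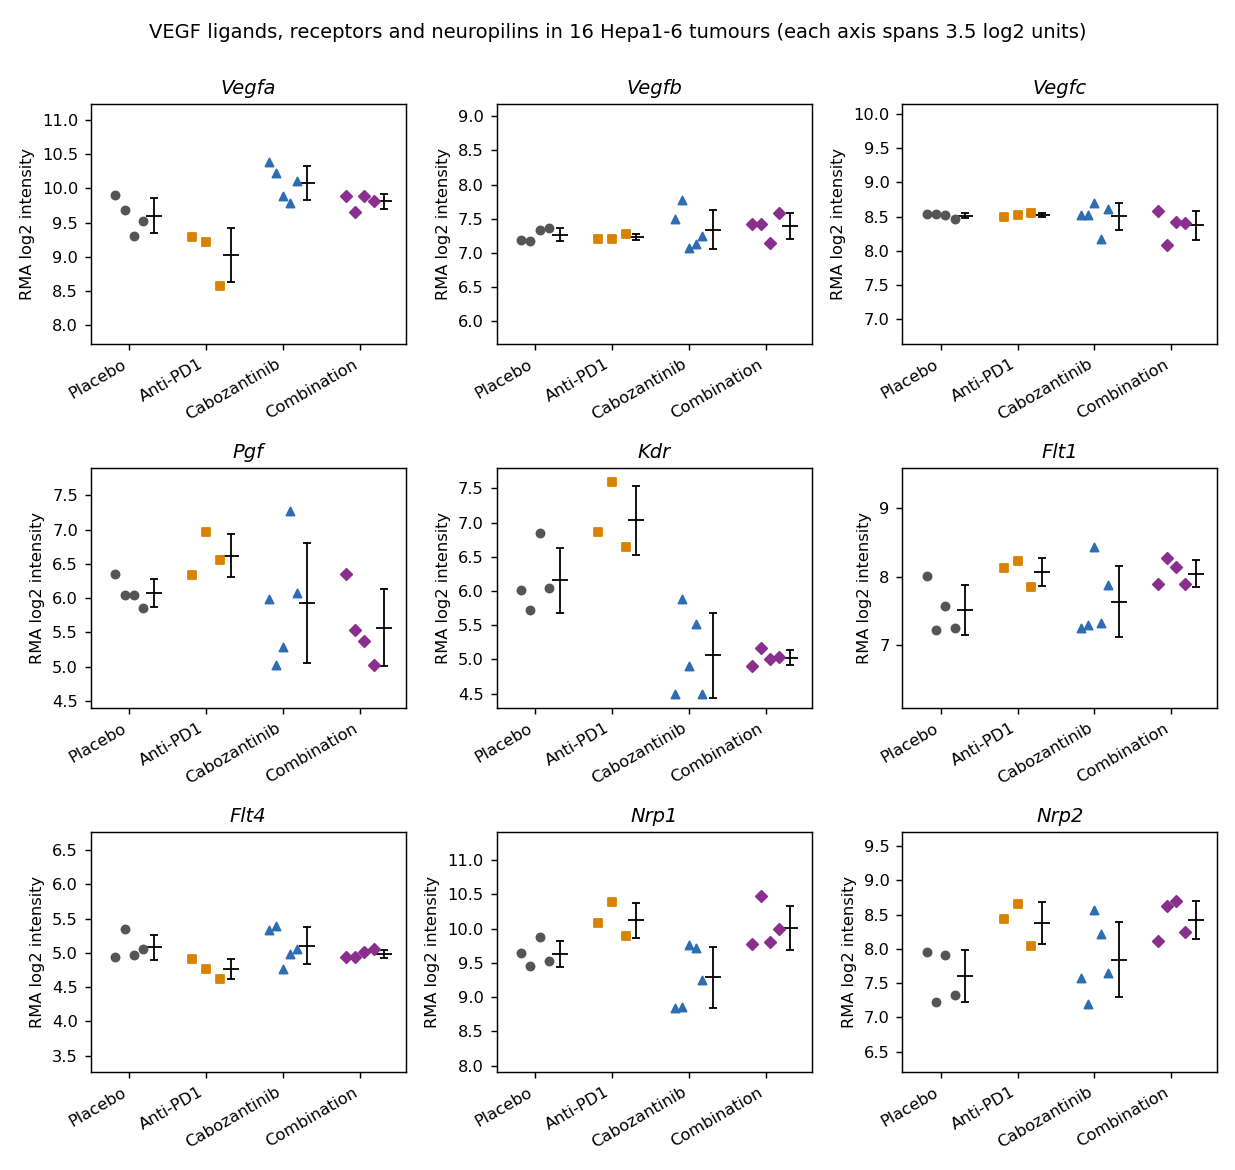
RMA log2 intensity of the 9 VEGF pathway genes in each of the 16 tumours, 1 point a tumour by treatment group, with the group mean and SD as the bar to the right of the points. Every vertical axis spans 3.5 log2 units. Kdr points of both groups given cabozantinib lie at 5.89 or below, and Vegfa points of the AntiPD1 group lie at 9.29 or below.

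Kdr encodes the main signalling receptor for VEGF-A on blood vessel endothelium. Its intensity was 6.01, 5.72, 6.84 and 6.05 in the 4 Placebo tumours and 6.86, 7.59 and 6.64 in the 3 AntiPD1 tumours. It was 4.49, 5.89, 4.90, 5.52 and 4.50 in the 5 Cabozantinib tumours and 4.91, 5.16, 5.00 and 5.04 in the 4 Combination tumours. All Combination tumours were below all Placebo and AntiPD1 tumours, and all Cabozantinib tumours were below all AntiPD1 tumours. Cabozantinib replicate 2, at 5.89, was the only one of its group to reach the Placebo range. In 3 of the 5 Cabozantinib tumours and 1 of the 4 Combination tumours Kdr was under the lowest array median, and the other 3 Combination values were 5.16 or below. Neither group as a whole is shown to be above background, so the Kdr differences below are those of measured intensity, and the size of the fall in RNA is not read from them.

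Averaged over both antibody states, the intensity of Kdr was lower with cabozantinib, by a log2 difference of -1.55 ± 0.22 (standard error, SE) with a 95% interval from -2.03 to -1.07 and an adjusted p of 0.00273. Kdr stayed past the threshold in this comparison in all 27 alternative settings, with log2 differences from -1.93 to -1.41. Without the 4 tumours high in muscle genes the difference was -1.46 (adjusted p = 0.0240). Kdr and Vegfa were the 2 members called in this comparison, 1 in each direction, against 2.12% of all genes.

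The pairwise comparisons differed in how firmly they showed the same difference. Cabozantinib against AntiPD1 gave -1.97 ± 0.32 for Kdr (adjusted p = 0.00509), and Combination against AntiPD1 gave -2.0 ± 0.34 (adjusted p = 0.0209). Combination against Placebo gave -1.13 ± 0.31 (adjusted p = 0.0389). Cabozantinib against Placebo had nearly the same size, -1.09 ± 0.30, but did not pass (adjusted p = 0.137). There 4 of 5 Cabozantinib tumours were below all 4 Placebo tumours.

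Kdr was the 1 member called in Combination against Placebo, where 10.4% of all genes were called, and the 1 member called in Combination against AntiPD1, where 0.234% were. No member passed in Cabozantinib against Placebo, where 0.257% of all genes did. Without adjustment 2 members there, Kdr and Vegfa, had p under 0.05, against 13% of all genes. The Kdr call in Combination against Placebo was lost when Placebo replicate 2, 3 or 4, AntiPD1 replicate 1 or any single Combination tumour was left out, with log2 differences from -1.27 to -0.90 and adjusted p-values from 0.0521 to 0.108. The call in Combination against AntiPD1 was lost without AntiPD1 replicate 1 or 2 or any single Combination tumour, with differences from -2.09 to -1.72 and adjusted p-values from 0.0567 to 0.123. It was also lost without the muscle-rich tumours (-1.73, adjusted p = 0.153). With only the 2 groups compared in the fit, Cabozantinib against AntiPD1 gave an adjusted p of 0.0577 for Kdr and 0.0565 for Vegfa.

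Neither Combination against Cabozantinib nor AntiPD1 against Placebo passed for Kdr. Combination and Cabozantinib differed by -0.03 ± 0.30, with a 95% interval from -0.67 to 0.60, which leaves room for a difference of either sign. AntiPD1 against Placebo gave 0.88 ± 0.34 (adjusted p = 0.194), and 2 of the 3 AntiPD1 values exceeded the Placebo range. The interaction of the 2 drugs on Kdr was -0.91 ± 0.45 (adjusted p = 0.9997). No gene passed the interaction test in limma, where 440 genes, 2.57% of those tested and 0 of the 9 members, had an unadjusted p under 0.05.

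Vegfa encodes the ligand itself. Its intensity was 9.90, 9.68, 9.30 and 9.52 in Placebo tumours and 9.29, 9.21 and 8.57 in AntiPD1 tumours. It was 10.38, 10.23, 9.89 and 9.78 in Cabozantinib replicates 1 to 4, with replicate 5 between replicates 2 and 3, and 9.89, 9.66, 9.89 and 9.81 in Combination tumours. All 3 AntiPD1 tumours lay below every tumour of the other groups. The Combination values fell within a range of 0.23 and overlapped both the Placebo and the Cabozantinib range.

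Averaged over the antibody, cabozantinib raised Vegfa 1.55-fold, a log2 difference of 0.63 ± 0.12 (95% interval 0.37 to 0.89, adjusted p = 0.0165). Averaged over cabozantinib, the antibody lowered it by 1.34-fold, a log2 difference of -0.42 ± 0.12 (adjusted p = 0.0309). The gap between the single agents was the widest pairwise one, 1.05 ± 0.17 for Cabozantinib against AntiPD1 (adjusted p = 0.00554). Against Placebo neither passed, with 0.48 ± 0.16 for Cabozantinib (adjusted p = 0.226) and -0.58 ± 0.18 for AntiPD1 (adjusted p = 0.158). Combination against AntiPD1 gave 0.79 ± 0.18 and an adjusted p of 0.132, with 4 of 4 Combination values above the AntiPD1 range.

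The control transcripts added at hybridisation ranged from 9.58 to 10.42 on Placebo arrays, 9.98 to 10.47 on AntiPD1 arrays, 10.28 to 10.95 on Cabozantinib arrays and 9.97 to 10.62 on Combination arrays. Their means were 10.06, 10.18, 10.64 and 10.33, all ranges overlapped, and their part in the Vegfa values was not tested beyond the covariate. With them as a covariate the averaged cabozantinib difference in Vegfa was 0.69 and its adjusted p 0.0565, while Kdr gave -1.93 (adjusted p = 0.00101). The antibody's averaged effect on Vegfa was lost without Placebo replicate 2, AntiPD1 replicate 2 or 3, Cabozantinib replicate 1 or 5, or Combination replicate 2, with differences from -0.47 to -0.31 and adjusted p-values from 0.0501 to 0.0684.

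The second Vegfa probe set followed the one used here with r = 0.97 over the 16 tumours. Fitted among all probe sets it gave 0.70 ± 0.17 for cabozantinib averaged over the antibody (adjusted p = 0.0559) and 1.19 ± 0.24 for Cabozantinib against AntiPD1 (adjusted p = 0.0171). For the antibody averaged over cabozantinib it gave -0.49 ± 0.17 and did not pass (adjusted p = 0.0732). The first probe set passed there in the same fit (adjusted p = 0.0360).

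The promoters of these opposed genes are shown because Vegfa is a standard target of the hypoxia-inducible factors, which bind the cores ACGTG and GCGTG, and because both genes carry boxes for the general activator Sp1, GGGCGG. Each stretch is the 250 bases before the gene's start in RefSeq on mouse build GRCm38.p6, read 5′ to 3′ on the gene's own strand, with capitals marking a hypoxia core or an Sp1 box on either strand. Vegfa lies at chr17:46032378-46032627 on the minus strand and Kdr at chr5:75978456-75978705 on the minus strand.
Vegfa: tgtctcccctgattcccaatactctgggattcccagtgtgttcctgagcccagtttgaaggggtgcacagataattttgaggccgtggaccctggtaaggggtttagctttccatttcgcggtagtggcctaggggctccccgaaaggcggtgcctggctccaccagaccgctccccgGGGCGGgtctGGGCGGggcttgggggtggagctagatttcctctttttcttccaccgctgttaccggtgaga
Kdr: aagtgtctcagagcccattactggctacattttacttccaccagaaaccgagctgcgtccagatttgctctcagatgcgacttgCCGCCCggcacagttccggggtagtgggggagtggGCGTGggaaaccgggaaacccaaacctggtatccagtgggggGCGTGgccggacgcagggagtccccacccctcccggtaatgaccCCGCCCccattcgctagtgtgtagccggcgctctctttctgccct
The Vegfa stretch held 2 Sp1 boxes, starting 72 and 62 bases before the gene's start, and 0 hypoxia cores. Bases farther than 250 before a start were not searched, so cores there would not be seen. A second Vegfa start in RefSeq had 2 hypoxia cores, at 218 and 211 bases before it. The Kdr stretch held 2 GCGTG cores, at 131 and 89 bases before its start, and 2 Sp1 boxes, at 166 and 45, written there as CCGCCC. Either hypoxia core was present in 38.6% of the 32851 stretches of this length in the table and the Sp1 box in 32.7%, so neither is rare. No marked core or box overlapped another.

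Genes induced by low oxygen moved with Vegfa. With cabozantinib averaged over the antibody, 9 of 17 rose and 0 fell, where 2.12% of all genes were called in either direction. All 17 had positive log2 differences, with a median of 0.33 against 0.00080 over all genes. The same list had 12 of 17 called higher in Cabozantinib against AntiPD1, where 5.43% of all genes were called in either direction. Ero1a, an enzyme of disulphide formation, was 10.47, 10.37, 9.99 and 9.98 in Placebo tumours and 11.03, 10.87, 10.93, 10.99 and 10.87 in Cabozantinib tumours, which did not overlap. Its averaged cabozantinib difference was 0.73 ± 0.10 (adjusted p = 0.00259).

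P4ha2, a collagen prolyl hydroxylase subunit, rose by 0.55 ± 0.09 (adjusted p = 0.00592). Ndrg1, a stress response gene, rose by 0.69 ± 0.12 (adjusted p = 0.00905). Egln3, an oxygen sensor that marks hypoxia-inducible factors for decay, rose by 0.53 ± 0.09 (adjusted p = 0.00778). Ero1a, P4ha2, Ndrg1 and Egln3 were named because they had the lowest F test p of this list. Their p-values here come from the same tumours and are no separate evidence. The antibody averaged over cabozantinib lowered 2 of the 17, Ndrg1 (-0.36 ± 0.12, adjusted p = 0.0471) and Egln1 (-0.34 ± 0.08, adjusted p = 0.0150), the latter named after its value was seen. In that comparison 18% of all genes were called in either direction. Over the 16 tumours Vegfa and the list's score, the mean of its centred log2 values, correlated at r = 0.90. These tumours fall into treatment groups, so r is a description with no test.

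**Figure D2:**
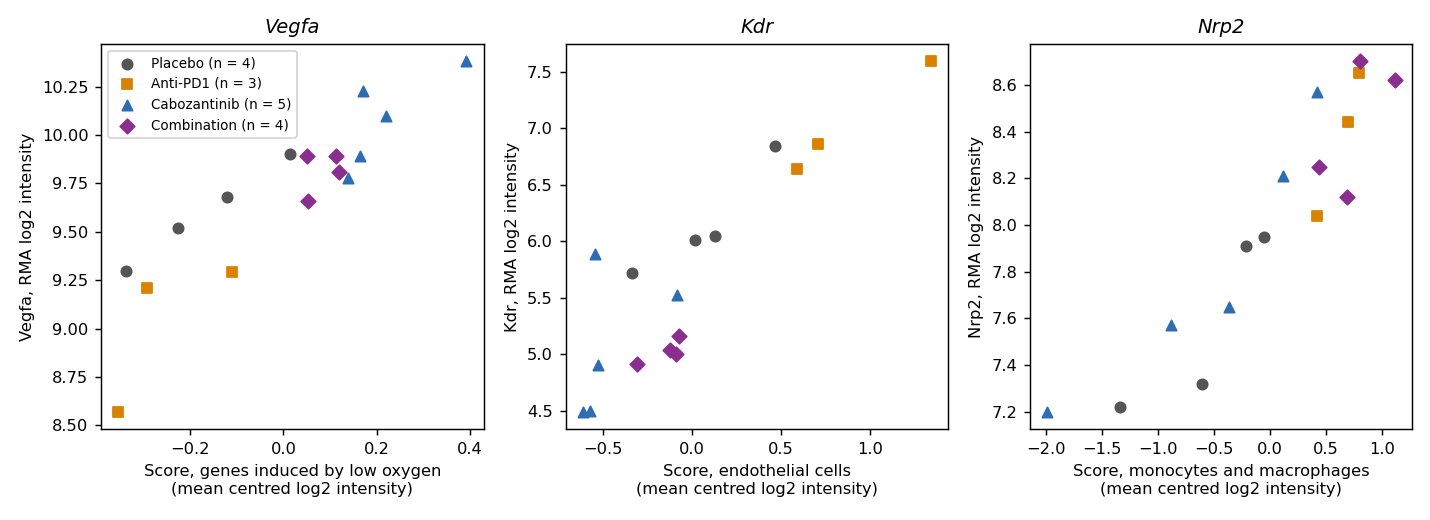
Intensity of Vegfa, Kdr and Nrp2 against the score of a gene list in each of the 16 tumours, coloured by group. The score is the mean centred log2 value of genes induced by low oxygen (left), endothelial genes (middle) or monocyte and macrophage genes (right), and the 3 pairs have r = 0.90, 0.89 and 0.92. Not drawn are Vegfa against the endothelial score (r = -0.82) and Kdr against the score of genes induced by low oxygen (r = -0.85).

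Kdr moved with endothelial genes, none of which is a VEGF receptor or neuropilin. With cabozantinib averaged over the antibody, 12 of 20 endothelial genes fell and 0 rose, against 2.12% of all genes called. The median difference of the 20 was -0.81. It was -0.48 in Cabozantinib against Placebo and -1.02 in Combination against AntiPD1. The first of these pairs had 2 of the 20 called lower and the second 6, with 0 higher, against 0.257% and 0.234% of all genes. With the antibody averaged over cabozantinib, 13 of 20 rose and 1 fell (Ecscr, named after its value was seen), where 18% of all genes were called. The median was 0.88 in AntiPD1 against Placebo and 0.27 in Combination against Cabozantinib. In these pairs 0 of the 20 were called, against 0.0292% and 0.00585% of all genes. All 20 interaction estimates were negative, with a median of -0.52 and 0 called. Cdh5, the adhesion protein of endothelial junctions, was 6.01, 6.11, 6.62 and 6.53 in Placebo, 4.64, 5.05, 4.96, 5.62 and 4.67 in Cabozantinib and 5.14, 5.04, 5.29 and 5.65 in Combination tumours. Both groups given cabozantinib lay wholly below Placebo, and the averaged difference was -1.77 ± 0.15 (adjusted p = 3.62e-05). Cabozantinib replicates 1 and 5 were under the lowest array median, so this size too is one of measured intensity.

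Pecam1, a surface marker of endothelium, fell by 0.91 on the log2 scale (adjusted p = 0.0326), and Tie1, an endothelial receptor, fell by 0.90 (adjusted p = 0.00448). Tie1 had means of 4.37 in Cabozantinib and 4.41 in Combination tumours, under every array median, so its fall is one of measured intensity. The endothelial score ran from -0.33 to 0.47 in Placebo, from 0.59 to 1.34 in AntiPD1, from -0.61 to -0.08 in Cabozantinib and from -0.31 to -0.07 in Combination tumours. In bulk tumours fewer endothelial cells and less Kdr RNA per cell cannot be told apart.

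To set the receptors beside the endothelial genes, the endothelial score was subtracted from each receptor's centred log2 value in each tumour. For Kdr the remainder was 0.29, 0.36, 0.67 and 0.23 in Placebo and -0.48, -0.46, -0.60 and -0.53 in Combination tumours, which did not overlap. It was 0.46, 0.55 and 0.36 in AntiPD1 and -0.59, 0.74, -0.27, -0.09 and -0.63 in Cabozantinib tumours, where replicate 2 stood above all others. The mean remainder of Kdr differed between Combination and Placebo tumours by -0.90 on the log2 scale (two-sided exact permutation p = 0.0286). Adjusted over the 30 comparisons of 5 receptors in 6 pairs of groups this was 0.0779. The score is a mean over 20 genes that did not move alike, with 1 called higher and 5 lower in Combination against Placebo. There 10.4% of all genes were called.

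The difference from the score is not particular to Kdr, whose own difference was -1.13. Cdh5 gave -1.04 (adjusted p = 0.0177) and Emcn, an endothelial surface sialomucin named after its value was seen, -1.06 (adjusted p = 0.0496), while Tek, an angiopoietin receptor also named afterwards, gave 0.80 (adjusted p = 0.0466).

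That exact p is the smallest that 4 against 4 tumours allow, and none of the 30 comparisons had an adjusted p under 0.05. For Nrp2 the remainder went the other way, with a mean of -0.50 ± 0.31 (SD, n = 4) in Placebo and 0.54 ± 0.20 (SD, n = 4) in Combination tumours. That difference of 1.04 had the same exact p of 0.0286 and adjusted p of 0.0779. Flt1 and Nrp1 were also higher relative to endothelial genes in Combination than in Placebo tumours, by 0.75 and 0.61, each with an exact permutation p of 0.0286 and the same adjusted value.

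**Figure D3:**
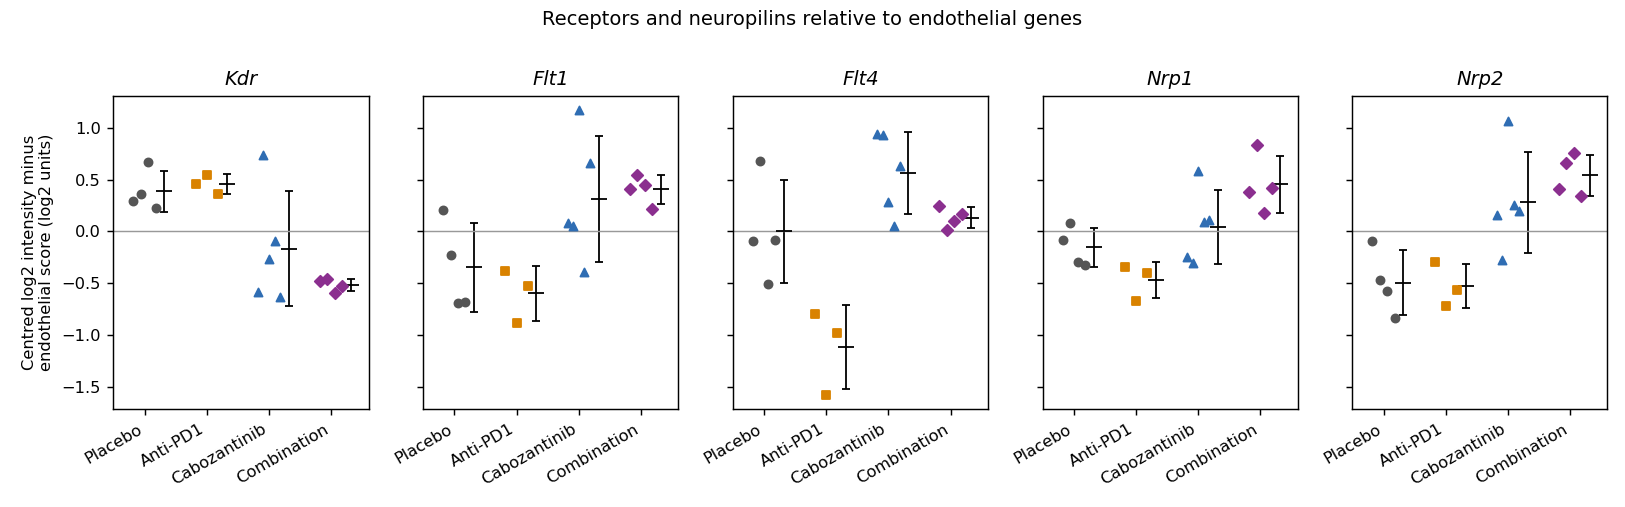
Centred log2 intensity of each receptor minus the endothelial score in the 16 tumours, 1 point a tumour, with the group mean and SD to the right of the points. Values above 0 are receptors higher than the tumour's endothelial genes, each relative to its mean over the 16 tumours. Kdr is below 0 in all 4 Combination tumours, where Flt1, Flt4, Nrp1 and Nrp2 are above 0. Flt4 (4.94 to 5.05) and Kdr (4.91 to 5.16) were near background in those tumours, so no size of an RNA difference is read from either.

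Flt1 encodes VEGFR1, found on endothelium and on monocytes and macrophages. Its intensity was 8.02, 7.23, 7.57 and 7.25 in Placebo, 8.13, 8.24 and 7.85 in AntiPD1, 7.26, 7.30, 8.44, 7.32 and 7.88 in Cabozantinib and 7.89, 8.27, 8.15 and 7.89 in Combination tumours. The groups overlapped throughout, and Cabozantinib replicate 3 had the highest value of all 16. Cabozantinib averaged over the antibody gave 0.05 ± 0.17 for Flt1, with a 95% interval from -0.32 to 0.42. The antibody averaged over cabozantinib gave 0.48 ± 0.17 (adjusted p = 0.0667).

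Without Cabozantinib replicate 3 the antibody difference in Flt1 was 0.58 (adjusted p = 0.00870), and without Placebo replicate 1 it was 0.57 (adjusted p = 0.0351). Without the 4 muscle-rich tumours it was 0.55 (adjusted p = 0.0312). Combination against Cabozantinib gave 0.41 ± 0.23 for Flt1 (adjusted p = 0.309), and 0.61 without Cabozantinib replicate 3 (adjusted p = 0.0484). The 3 Flt1 probe sets correlated at r from 0.77 to 0.94, and the dimmest was under the lowest array median in 1 Placebo tumour.

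Flt4 encodes VEGFR3 and lay near background, from 4.62 to 5.40 over all tumours. Its intensity was 4.94, 5.35, 4.97 and 5.06 in Placebo and 4.91, 4.77 and 4.62 in AntiPD1 tumours, none of which reached the lowest array median of 4.92. It was 4.76 to 5.40 in Cabozantinib and 4.94 to 5.05 in Combination tumours. No fold is read from these values, although the averaged antibody difference in Flt4, -0.22 ± 0.09 (adjusted p = 0.117), became -0.31 without the muscle-rich tumours (adjusted p = 0.0350). Of 5 measured lymphatic genes, Pdpn, also made by fibroblasts, rose with the antibody averaged over cabozantinib (1.80 ± 0.53, adjusted p = 0.0328) and Prox1, also a liver transcription factor, fell (-0.80 ± 0.19, adjusted p = 0.0171), while Lyve1, Reln and Mmrn1 had group means between 4.02 and 5.11. These genes were named after their values were seen.

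Nrp1 encodes a co-receptor that binds VEGF-A beside VEGFR2. Its intensity was 9.65, 9.45, 9.88 and 9.52 in Placebo, 10.08, 10.39 and 9.89 in AntiPD1, 8.84, 8.86, 9.76, 9.72 and 9.25 in Cabozantinib and 9.78, 10.47, 9.80 and 10.00 in Combination tumours. All Cabozantinib tumours were below all Combination and all AntiPD1 tumours. The antibody averaged over cabozantinib raised Nrp1 1.53-fold, a log2 difference of 0.61 ± 0.16 (95% interval 0.28 to 0.95, adjusted p = 0.0208). Without AntiPD1 replicate 2 it was 0.54 (adjusted p = 0.0699).

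Cabozantinib against AntiPD1 gave -0.83 ± 0.23 for Nrp1 (adjusted p = 0.0455). That call was lost in 13 of the 16 fits that left out 1 tumour, with differences from -0.95 to -0.70 and adjusted p-values from 0.0526 to 0.210, and held without Cabozantinib replicate 3 or 4 or Combination replicate 2. Combination against Cabozantinib gave 0.73 ± 0.21 (adjusted p = 0.0855). Without Cabozantinib replicate 3, a tumour high in muscle genes, this was 0.85 (adjusted p = 0.0231), and without all 4 muscle-rich tumours it was 1.03 (adjusted p = 0.00595). The 3 Nrp1 probe sets correlated at r from 0.93 to 0.98, and all 3 were called for the antibody averaged over cabozantinib when fitted among all probe sets.

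Nrp2 encodes the co-receptor that also binds VEGF-C. Its intensity was 7.95, 7.22, 7.91 and 7.32 in Placebo, 8.44, 8.65 and 8.04 in AntiPD1, 7.57, 7.20, 8.57, 8.21 and 7.65 in Cabozantinib and 8.12, 8.62, 8.70 and 8.25 in Combination tumours. Both groups given the antibody lay wholly above Placebo, and the Cabozantinib group spanned nearly the whole range. The antibody averaged over cabozantinib raised Nrp2 1.60-fold, a log2 difference of 0.68 ± 0.19 (95% interval 0.27 to 1.09, adjusted p = 0.0292).

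This call was lost without Placebo replicate 2 or 4, AntiPD1 replicate 1 or 2, Cabozantinib replicate 1 or 5, or Combination replicate 2 or 3, with differences from 0.61 to 0.66 and adjusted p-values from 0.0502 to 0.0890. Combination against Placebo gave 0.82 ± 0.27 for Nrp2 (adjusted p = 0.0631), which passed without Cabozantinib replicate 2 or 3 (adjusted p = 0.0424 and 0.0343). Combination against Cabozantinib gave 0.58 ± 0.26 (adjusted p = 0.196), and 0.76 without Cabozantinib replicate 3 (adjusted p = 0.0484). Without the muscle-rich tumours Nrp2 passed in both, with 0.88 against Placebo (adjusted p = 0.0226) and 1.0 against Cabozantinib (adjusted p = 0.0130). The second Nrp2 probe set correlated with the first at r = 0.94 and gave 0.86 ± 0.22 for the averaged antibody difference (adjusted p = 0.0242).

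With the antibody averaged over cabozantinib, 2 members rose and 1 fell, against 18% of all genes called in either direction. In Cabozantinib against AntiPD1 there were 3 members called, Vegfa higher and Kdr and Nrp1 lower, against 5.43% of all genes. These comparisons share tumours, so the calls are not independent of each other. No member passed in AntiPD1 against Placebo, where 0.0292% of all genes did, or in Combination against Cabozantinib, where 0.00585% did. Without adjustment 4 members of the first (Flt4, Kdr, Nrp2 and Vegfa) had p under 0.05, against 19.2% of all genes, and 2 of the second (Nrp1 and Nrp2), against 22.5%.

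By range alone, AntiPD1 did not overlap Placebo for 4 members (Nrp1 and Nrp2 above, Flt4 and Vegfa below), against 21.5% of all genes. Combination did not overlap Placebo for 2 (Nrp2 above, Kdr below), against 20.9%, and Cabozantinib for 0, against 4.51%. Combination did not overlap Cabozantinib for 1 (Nrp1 above), against 5.11%, and AntiPD1 for 3 (Vegfa and Flt4 above, Kdr below), against 8.67%. Cabozantinib did not overlap AntiPD1 for 3 (Vegfa above, Kdr and Nrp1 below), against 13.5%.

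**Figure D4:**
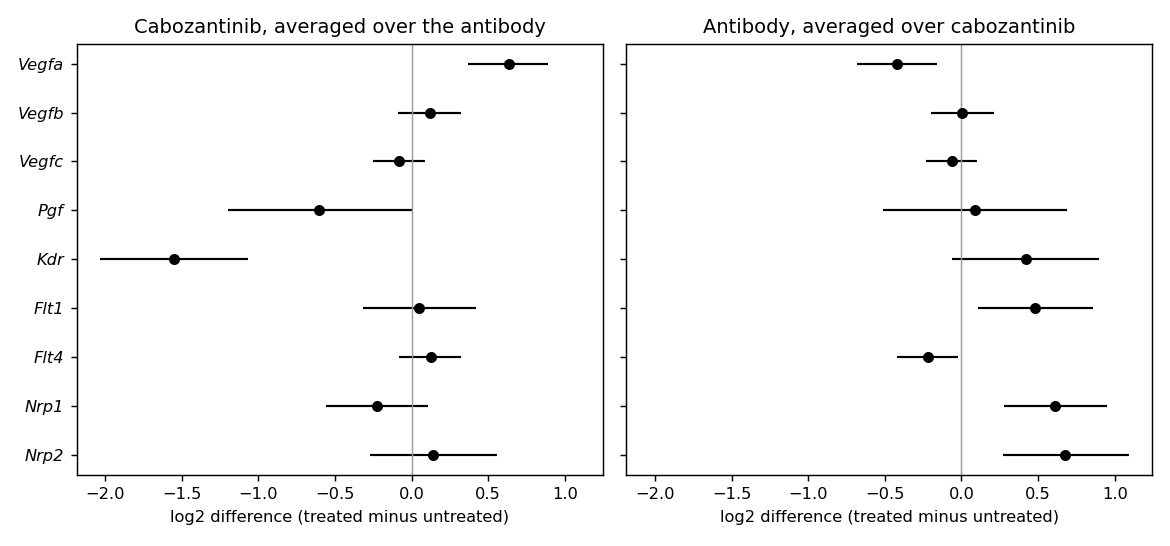
Log2 difference of the 9 genes for cabozantinib averaged over the antibody (left) and the antibody averaged over cabozantinib (right), as points with 95% intervals from the limma fit of 16 tumours. Called after adjustment were Kdr at -1.55 and Vegfa at 0.63 on the left, and Vegfa at -0.42, Nrp1 at 0.61 and Nrp2 at 0.68 on the right. The intervals of Flt1 (0.11 to 0.86) and Flt4 (-0.42 to -0.02) on the right also leave out 0, without a call. That of Pgf on the left ends just below 0, also without a call. The intervals are not adjusted for the number of genes.

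Markers of other host cells moved with the neuropilins. All 11 monocyte and macrophage genes rose with the antibody averaged over cabozantinib, with a median difference of 1.16, and 4 of 8 fibroblast genes rose (Col1a1, Col1a2, Col3a1 and Lum, named after their values were seen). That comparison called 18% of all genes in either direction. The macrophage score ran from -1.35 to -0.05 in Placebo, 0.42 to 0.79 in AntiPD1, -1.99 to 0.42 in Cabozantinib and 0.44 to 1.12 in Combination tumours. Over the 16 tumours it correlated with Nrp2 at r = 0.92, with Nrp1 at 0.85, with Flt1 at 0.80 and with Kdr at 0.08. This was not particular to macrophage genes. The fibroblast score had r = 0.89 with Nrp2, 0.86 with Nrp1 and 0.70 with Flt1, and the T cell score 0.82, 0.80 and 0.67. The score of tumour hepatocyte genes had r = -0.80, -0.67 and -0.65 with the same genes. The part of these cells in the neuropilin and Flt1 values was not tested.

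The remaining ligands gave no call in any comparison. Vegfb, a ligand of VEGFR1, had group means of 7.27 ± 0.09 (SD, n = 4) in Placebo, 7.23 ± 0.04 (n = 3) in AntiPD1, 7.34 ± 0.29 (n = 5) in Cabozantinib and 7.39 ± 0.19 (n = 4) in Combination tumours. Vegfc, the lymphatic ligand, had group means between 8.38 and 8.53. For the averaged effect of cabozantinib the 95% intervals were -0.09 to 0.32 for Vegfb and -0.25 to 0.09 for Vegfc, and for the antibody -0.20 to 0.21 and -0.23 to 0.10. These intervals are not adjusted for the number of genes.

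Pgf, the placental growth factor gene, had the largest SD of the 9 genes within the Cabozantinib and the Combination group, but not within the other 2. It was 6.35, 6.05, 6.05 and 5.86 in Placebo, 6.34, 6.96 and 6.56 in AntiPD1, 5.99, 5.02, 5.29, 7.27 and 6.07 in Cabozantinib and 6.35, 5.53, 5.37 and 5.02 in Combination tumours. Cabozantinib replicate 4 had the highest value of all 16, within a group that also held one of the lowest. The averaged cabozantinib difference was -0.60 ± 0.28 (adjusted p = 0.308) and Combination against AntiPD1 was -1.05 ± 0.42 (adjusted p = 0.585).

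Genes that VEGF is known to induce in endothelium were the next list. With cabozantinib averaged over the antibody, 5 of 14 fell and 0 rose, against 2.12% of all genes called. The median over the 14 was 0.03. Esm1, a proteoglycan of sprouting endothelial tip cells, was 6.11, 6.85, 6.70 and 7.25 in Placebo, 7.82, 8.31 and 8.64 in AntiPD1, 4.54, 4.89, 4.47, 4.78 and 4.62 in Cabozantinib and 5.11, 4.45, 4.90 and 4.78 in Combination tumours. AntiPD1 lay wholly above Placebo and both groups given cabozantinib wholly below it, near background. The averaged difference in Esm1 was -2.76 ± 0.16 (adjusted p = 7.40e-07), and AntiPD1 against Placebo gave 1.53 ± 0.24 (adjusted p = 0.0469).

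Apln, a peptide hormone made by tip cells, had an averaged cabozantinib difference of -1.2 ± 0.15 (adjusted p = 0.00128), and Angpt2, a ligand that loosens vessels, fell by 0.74 (adjusted p = 0.0115). The other 2 called lower were Dll4 and Kcne3, named after their values were seen. Dll4 had group means of 4.67 or below, under every array median, and Kcne3 means of 3.85 and 3.89 in the groups given cabozantinib, so no size is read from either. F3, the tissue factor that starts clotting, gave 0.47 ± 0.21 for cabozantinib (adjusted p = 0.296) and rose by 1.26 ± 0.21 with the antibody averaged over cabozantinib (adjusted p = 0.0101). With the antibody 4 of the 14 rose and 0 fell, against 18% of all genes called. The 4 were F3, Esm1 and, named after their values were seen, Rcan1 and Vcam1. Esm1, Apln, Angpt2 and F3 were likewise named for the lowest F test p of this list in the same tumours.

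Of 13 neuropilin partners, 0 passed for cabozantinib averaged over the antibody, where 2.12% of all genes were called. For the antibody averaged over cabozantinib 2 rose and 2 fell, where 18% of all genes were called. Vegfd, a lymphatic VEGF ligand, rose by 0.57 ± 0.12 (adjusted p = 0.0140). Plxnd1, a semaphorin receptor, rose by 1.07 ± 0.28 (adjusted p = 0.0225). The secreted semaphorins Sema3c and Sema3f fell by 0.52 (adjusted p = 0.0142) and 0.63 (adjusted p = 0.0139) on the log2 scale. Vegfd, Plxnd1, Sema3c and Sema3f were named for the lowest F test p of this list in the same tumours.

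Sema3f, a neuropilin-2 ligand that repels endothelial cells, was 7.24, 7.47, 7.88 and 7.61 in Placebo and 6.20, 6.30, 6.85 and 6.97 in Combination tumours, which did not overlap. That pair of groups differed by -0.97 ± 0.19 in Sema3f (adjusted p = 0.0158) and by 0.83 ± 0.17 in Vegfd (adjusted p = 0.0182).

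Of 25 measured genes that relay signals below VEGFR2, 1 rose and 0 fell with cabozantinib averaged over the antibody, and 8 rose and 0 fell with the antibody averaged over cabozantinib, where 2.12% and 18% of all genes were called. The 1 was Map2k1, a kinase of the MAP kinase cascade (0.19 ± 0.04, adjusted p = 0.0374). Ptprb and Ptprj, phosphatases that act on endothelial receptors, rose with the antibody by 0.69 ± 0.16 (adjusted p = 0.0149) and 0.61 ± 0.14 (adjusted p = 0.0153). Fyn, a kinase also abundant in leukocytes, rose by 1.12 ± 0.27 (adjusted p = 0.0171). Map2k1, Ptprb, Ptprj and Fyn were named for the lowest F test p of this list in the same tumours. Arrays measure transcripts, so phosphorylation of VEGFR2 or its relays was not measured.

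**Figure D5:**
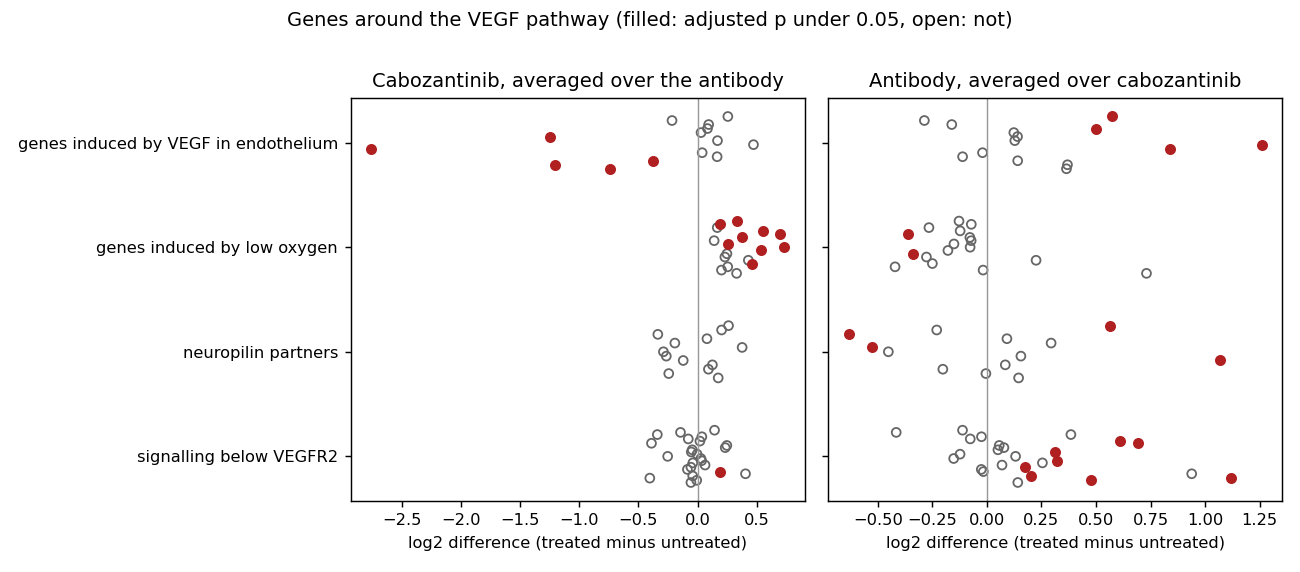
Log2 difference of each measured gene of 4 lists around the VEGF pathway for cabozantinib averaged over the antibody (left) and the antibody averaged over cabozantinib (right), with filled points for an adjusted p under 0.05 in limma. The 2 panels have different horizontal scales. The lowest point on the left is Esm1 at -2.76, and all 17 genes induced by low oxygen lie above 0 there.

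The 9 genes differed from each other in which transcripts they resembled most. The search covered 10548 genes whose mean over the 16 tumours was above the lowest array median. Vegfa was closest to Bnip3 (r = 0.98), Tenm4 (0.97) and Ndrg1 (0.95), and Kdr to Nrarp (0.95), Cdh5 (0.93) and Sox18 (0.93). Nrp1 was closest to Lbh, Myh10 and Rab29 (each 0.96), Nrp2 to Emp3 (0.97), Col6a1 (0.97) and Tmed10 (0.96), and Flt1 to Lat2 (0.94), Anxa1 (0.93) and Atp13a2 (0.93). The best matches of Flt4, Vegfb, Vegfc and Pgf were Mblac2 (0.91), Hibch (0.87), Gm19589 (0.81) and Myl6 (0.81). These r are over 16 tumours in 4 treatment groups and are descriptions with no test.

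Among the members, Nrp2 correlated with Flt1 at r = 0.85 and with Nrp1 at 0.79, and Vegfa with Kdr at -0.75. After the group means were removed, Vegfa and Bnip3 still had r = 0.95, Nrp2 and Emp3 0.94, and Kdr and Cdh5 0.70.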

How the data were processed

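Each of the 16 tumours has 1 array. The deposited values are log2 probe set intensities, and the submitters' processing notes name RMA and affy 1.62.0 without settings. Per the labels' protocols the array was Affymetrix's mouse whole-genome design. Arrays have no read depth, and their number limits the precision.

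Of 45037 probe sets that are no controls, 28898 pair with 1 gene, 551 with several and 15588 with none. limma 3.58.1 in R 4.3.3 was fitted to 17097 genes with 4 group means, 9 contrasts and an F test, adjusted by Benjamini-Hochberg over all genes, with a threshold of 0.05. The averaged effect of a drug is the mean of its differences without and with the other drug. Labels do not say what the numbers in the titles mark. The limma p-values set a group difference against the spread between tumours within groups. Exact tests, correlations and figures used SciPy, pandas and matplotlib. The fit was tested on simulated data.

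The genes, lists and tests were chosen with earlier results of these data known. Genes named by rule are the 9 members, Pecam1, Cdh5, Tie1, the 4 genes of each pathway list with the lowest F test p, and the 3 genes most like each member. For Flt4, Vegfb, Vegfc and Pgf only the best match is given. Other genes in the text fall outside this rule, and those named after their values were seen are marked there. Alternatives covered the probe set kept, the groups fitted, weights, filters, scaling, covariates and tumours left out. Some genes of the lists are not reported here.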

Additional observations from a re-analysis of the deposited data

How the results depend on the processing

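The cabozantinib effect on Kdr averaged over the antibody passed in all 27 alternatives, and so did the F tests of Kdr and Vegfa. The labels do not say what the numbers in the titles mark. Placebo and AntiPD1 share 2 of them, Cabozantinib and Combination share 1, and the other pairs of groups share none, so no fixed block was fitted. Within a group, only Cabozantinib replicates 2 and 3 share a number. With the title number as a random block (consensus correlation -0.103) every call stayed as it was. Counts of called members that moved by over 1.5 times were these. In Cabozantinib against Placebo the count rose from 0 to 1 (Kdr) with muscle and adipocyte scores as covariates. In AntiPD1 against Placebo it rose from 0 to 1 (Nrp2) with array weights. In Combination against Placebo it rose from 1 to 2, with Nrp2 added, with the largest-SD probe set, only the 2 groups, array weights, the filter on dim genes or without muscle-rich tumours, and was 0 to 2 with 1 tumour left out. In Combination against Cabozantinib it rose from 0 to 1 (Nrp1) with array weights or hybridisation controls as a covariate and to 2 without muscle-rich tumours, and was 0 to 3 with 1 tumour left out. In Combination against AntiPD1 it fell from 1 to 0 without muscle-rich tumours, and was 0 to 1 with 1 tumour left out. In Cabozantinib against AntiPD1 it fell from 3 to 0 with only the 2 groups. For cabozantinib averaged it fell from 2 to 1 with the largest-SD probe set or hybridisation controls. For the antibody averaged it rose from 3 to 5 without muscle-rich tumours and was 0 to 5 with 1 left out. The F test count rose from 2 to 4 with array weights or without muscle-rich tumours, and was 2 to 5 with 1 left out. By probe set it rose from 3 to 5 with the filter on dim probe sets.

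Among 1573 values for single genes, 8 changed sign, none of them past the threshold before or after. Nrp2 in Cabozantinib against Placebo became -0.12, and Pgf in Combination against Cabozantinib became 0.054, both without muscle-rich tumours. Kdr in Combination against Cabozantinib became 0.16 with array weights, 0.063 without muscle-rich tumours and 0.28 with hybridisation controls, and lay between -0.17 and 0.17 with 1 tumour left out. A further 52 values lost the threshold and 35 gained it. The cause of these changes was not tested. No receptor passed relative to endothelial genes under any of 17 alternatives, with a lowest adjusted p of 0.0612.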

Other observations

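Pericyte genes, which mark the cells that wrap small vessels, also moved with cabozantinib. Averaged over the antibody, 3 of 8 fell and 0 rose, against 2.12% of all genes called, and 2 of the 8 had positive differences. Rgs5, a pericyte regulator of G protein signalling, fell by 0.79 on the log2 scale (adjusted p = 0.00174). Mcam, an adhesion protein of vessel walls, fell by 1.14 (adjusted p = 0.00177), and Kcnj8, a potassium channel of pericytes, fell by 0.59 (adjusted p = 0.00624). Kcnj8 was also lower in all 3 AntiPD1 tumours than in any Placebo tumour, with a log2 difference of -0.58 (adjusted p = 0.127). These genes were named after their values were seen. Of 27 groups of 4 or 5 tumours checked for a single value far from the rest of its group, 0 of the 9 VEGF pathway genes had one, where chance gives about 1 in 20.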
